A study of Homo sapiens with 5 samples.

Results

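The SNARE proteins and the Sec1/Munc18 (SM) proteins, which fuse the membranes of transport vesicles with their targets, were examined as a group of 42 genes in TF-1 cells with and without a knockout of *MTSS1*. TF-1 is a human line of erythroleukemic cells that grows in suspension. The members were chosen by gene name from knowledge of the fusion machinery, with earlier results of these data known. All 42 were found among the 27328 genes of the count table. Of these, 39 had enough counts to be tested, and 3 (*STX11*, *SEC22B*, and *NAPA*) did not.

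The 5 libraries are 2 control pools, which carry Cas9 with an sgRNA against renilla luciferase (sgCtrl), and 3 knockout pools, each with its own sgRNA against *MTSS1* (sgMTSS1_1, sgMTSS1_2, and sgMTSS1_3). Both groups were made with the same lentiviral Cas9-GFP vector. Each pool combined 4 single-cell clones, so that differences between pools include differences between clones, and p-values measure the spread between these pools of 1 cell line. The question of the comparison was which transcripts differ in level when MTSS1 protein is lost. Knockout pools 1, 2, and 3 are named here by the number of their sgRNA.

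Library totals were 2849979 and 3408827 counts for the controls and 8854899, 5442639, and 5801636 for the knockouts, so that every knockout library was deeper than both control libraries. Levels are given as CPM, the counts of a gene per 1e6 counts of its library after scaling with TMM factors, and 3 counts, the limit that a count of 0 allows, correspond to 0.389 to 0.938 CPM, for counting error only. The *MTSS1* transcript was at 204 and 87.9 CPM in controls and at 104, 139, and 49.9 CPM in knockout pools. These groups overlapped, and the log2-fold change of −0.58 (standard error [SE] 0.47, adjusted p = 0.494) did not pass the test, so that the transcript level does not check the labels. Tags from the 3′ end of a transcript do not read small edits elsewhere in the gene, and the knockout itself was checked by the study on protein. All 10 erythroid and progenitor markers fixed for TF-1 cells were found, with summed levels of 1207 to 1732 CPM in control and 1145 to 1496 CPM in knockout pools, and 0 of the 10 were called different. Single markers differed in direction within this sum: *KLF1*, *KIT*, *CD34*, and *CSF2RB* lay above and *GATA1* below both controls in every knockout pool, and *CD34* (log2-fold change 0.99, adjusted p = 0.148) and *HBG2* (log2-fold change −1.45, adjusted p = 0.257) had the largest values. Of the T cell markers 2 of 3 were found, with sums of 0 to 1.49 CPM in control and 0.542 to 4.70 CPM in knockout pools, and the 3 fibroblast markers summed to at most 1.04 CPM in any pool. The B cell list (2 of 3 found) summed to 7.82 and 11.6 CPM in control pools and to 3.24 to 4.15 CPM in knockout pools. The epithelial list of 3 summed to 53.5 and 111 against 135 to 139 CPM, nearly all of it from *KRT18*, while *EPCAM* and *CDH1* had at most 4 counts in a library. No gene of these lists was called. The part of these marker levels in the results below was not tested.

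SNARE proteins carry a coiled-coil motif, and 1 helix each of the Qa, Qb, Qc, and R classes zip into a bundle that pulls membranes together. The Qa member is a syntaxin, and SNAP-type proteins such as SNAP23 supply the Qb and Qc helices in a single chain. SM proteins hold the syntaxin and guide assembly of the bundle, and the ATPase NSF with adaptors such as alpha-SNAP takes spent bundles apart. In blood cells the machinery is known for the release of secretory granules: loss of the SM protein Munc18-2, encoded by *STXBP2*, or of its partner syntaxin 11 causes a familial form of hemophagocytic lymphohistiocytosis.

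Of the 39 tested genes, 1 was higher in the knockout and 0 were lower at an adjusted p under 0.05 (edgeR quasi-likelihood test with Benjamini-Hochberg adjustment over 14391 genes) and a log2-fold change beyond 1, where 4.17% of all tested genes were called higher and 1.01% lower. DESeq2 called 1 higher and 1 lower (*STXBP2*), against 1034 and 238 of 14082 genes. With limma-voom the counts were 1 and 0, against 510 and 124 of 14391 genes. At an unadjusted p under 0.05 there were 4 members higher and 6 lower, against 14.1% and 9.23% of all tested genes. At this unadjusted threshold DESeq2 gave 4 and 4, and limma-voom 5 and 5. The shares of all genes at this threshold were computed for edgeR alone. In 9 members all 3 knockout pools lay above both control pools, and in 10 they lay below, against 22.2% and 19.2% of all tested genes. In the remaining 20 the groups overlapped. The median log2-fold change was −0.06 over the members and −0.03 over all tested genes, and the median of its size was 0.52 over both.

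**Figure D1:**
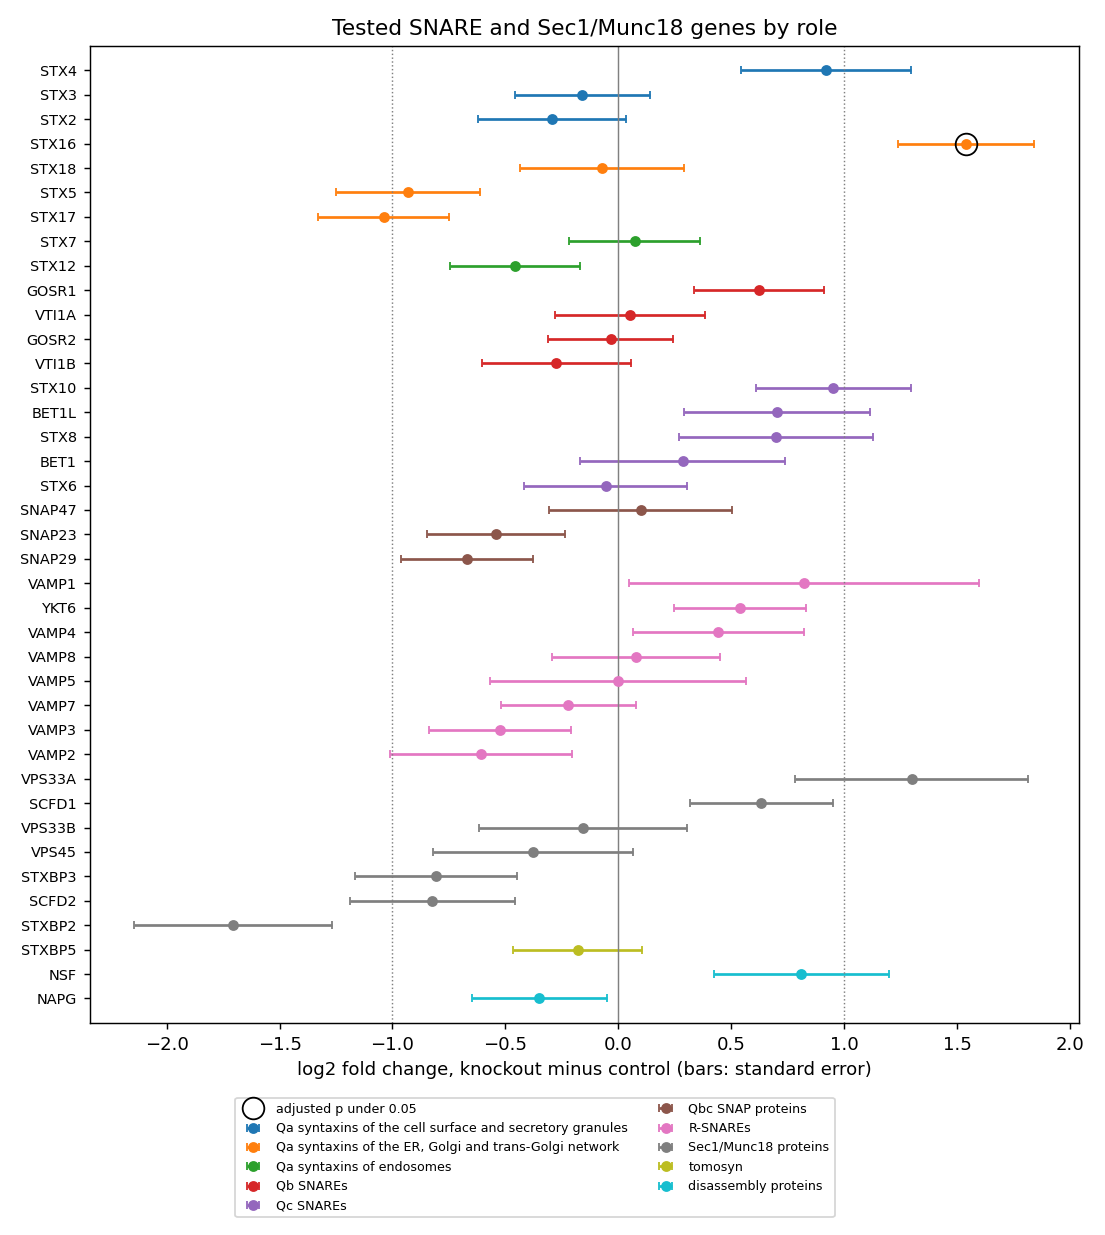
Log2-fold change, knockout minus control, of each of the 39 tested members with its standard error, ordered by class. *STX16* (1.54) is the called member, and *STXBP2* (−1.70) has the lowest value and was not called.

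Sequences around the RefSeq starts of the genes at the 2 ends of the range, *STX16* and *STXBP2*, are given for orientation, since one is the called member and the other the member with the lowest fold change. They are RefSeq windows on GRCh38.p14 from 250 bases before to 50 after the start that RefSeq gives. The GENCODE start of *STXBP2*, given with its values below, lies before this window, so that the window is inside the gene by that annotation. Capitals mark matches, on either strand, to 5 motifs: the GC box, the E-box, the CCAAT box, the ETS site, and the CRE, whose letters follow below.
STX16, chr20:58651033-58651332, plus strand: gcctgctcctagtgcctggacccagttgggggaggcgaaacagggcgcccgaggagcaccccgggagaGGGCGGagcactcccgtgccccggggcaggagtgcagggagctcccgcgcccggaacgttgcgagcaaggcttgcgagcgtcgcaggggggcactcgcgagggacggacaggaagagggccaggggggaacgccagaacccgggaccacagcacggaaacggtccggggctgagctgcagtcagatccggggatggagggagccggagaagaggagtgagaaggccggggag
STXBP2, chr19:7636860-7637159, plus strand: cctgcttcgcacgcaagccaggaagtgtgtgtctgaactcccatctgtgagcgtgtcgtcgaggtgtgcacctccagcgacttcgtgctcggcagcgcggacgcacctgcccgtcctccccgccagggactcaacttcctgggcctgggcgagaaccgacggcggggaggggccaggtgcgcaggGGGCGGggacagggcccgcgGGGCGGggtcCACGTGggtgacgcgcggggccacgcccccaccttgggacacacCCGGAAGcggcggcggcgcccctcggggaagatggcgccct
The *STX16* window held 1 GC box, and the *STXBP2* window held 2 GC boxes, an E-box, and an ETS site. Windows were found for 38 of the 42 members, with *BET1L*, *STX17*, *VPS33A*, and *VPS33B* missing. A GC box, searched as GGGCGG, occurred in 29 of the 38 (76.3%) and in 44.6% of all 27305 windows, and the median GC content was 65.7% against 58.3%. E-boxes, searched as CACGTG, occurred in 7 windows of members (18.4%) against 7.44% of all windows. ETS sites, searched as CCGGAAG, were in 10 windows of members (26.3%) against 10.7% of all. CCAAT boxes, searched by these letters, were in 12 windows of members (31.6%) against 35.7% of all. CREs, searched as TGACGTCA, were in 2 windows of members (5.26%) against 1.98% of all. The 27305 windows were not limited to tested genes, whereas most members were tested, and GC content differed between the sets. No difference in these shares was tested. Such matches describe letters only and were not set against expression.

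*STX16* encodes syntaxin 16, the Qa SNARE of the trans-Golgi network that receives vesicles returning from endosomes. The gene (ENSG00000124222) lies on chromosome 20 from 58651272 to 58679526 on the plus strand of GRCh38. Its level was 20.9 and 19.7 CPM in controls and 53.1, 64.3, and 60.0 CPM in knockout pools. The groups did not overlap, with means of 20.3 ± 0.905 (SD, n = 2) and 59.1 ± 5.66 CPM (SD, n = 3). The control SD rests on 2 pools with 67 and 66 counts and is a weak measure of their spread. It rose 2.91-fold, a log2-fold change of 1.54 (SE 0.30, adjusted p = 0.0238). In RNA of whole pools, a higher level in each cell and more cells or clones with a high level cannot be told apart. With all libraries thinned to the smallest total, the log2-fold change was 1.42 (adjusted p = 0.0331). The log2-fold change stayed between 1.41 and 1.69 in every alternative. The adjusted p rose to 0.0671, 0.0689, and 0.0805 without knockout pool 1, 2, or 3, in each case above the threshold. Over all genes, 107, 323, and 183 were called higher in these fits, against 600 in the reported fit. The overlapping readthrough gene *STX16-NPEPL1* held 9 counts in all libraries together. *STX16* is on the study's own list of differentially expressed genes from these libraries, so this call is not independent evidence.

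*STXBP2* (ENSG00000076944, chromosome 19, 7636772 to 7647873, plus strand) encodes Munc18-2, the SM protein of granule release. It was at 19.7 and 8.94 CPM in controls and at 3.76, 5.05, and 4.35 CPM in knockout pools, from 63 and 30 counts against 29, 28, and 25. Every knockout pool was below both controls, but the control pools differed from each other by more than the gap between the lower of them and the highest knockout pool. The log2-fold change of −1.70 (SE 0.44) had an adjusted p of 0.0547 and was not called. It was −1.02 (adjusted p = 0.191) without control pool 1 and −2.14 (adjusted p = 0.0208) without control pool 2, so that its size rested on which control pool was kept. It passed the threshold in 5 of 13 alternatives. *STXBP2* is also on lists that the study drew from these samples, and its direction here is not independent of them.

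The known partners of Munc18-2 in granule release are syntaxin 11, syntaxin 3, SNAP23, and VAMP8. *STX11* had 6 and 0 counts in control pools and 3, 2, and 0 in knockout pools, too few to test, and was at or near the limit of detection. *STX3* was at 26.3 and 26.2 CPM in control pools and at 26.3, 22.6, and 21.6 CPM in knockout pools (log2-fold change −0.16, SE 0.30, adjusted p = 0.793). *SNAP23* was at 49.7 and 33.7 against 31.3, 26.4, and 28.2 CPM (log2-fold change −0.54, SE 0.31, adjusted p = 0.322), with every knockout pool below both controls. *VAMP8*, the R-SNARE of late endosomes and granules, was at 123 and 256 against 237, 206, and 156 CPM (log2-fold change 0.08, SE 0.37, adjusted p = 0.926), and all 3 knockout pools lay between the controls. No partner with enough counts was called, and *VAMP8* changed sign with the scaling and with the pool left out.

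Among the 3 tested syntaxins of the cell surface, 0 were called. *STX4*, which directs vesicles to the plasma membrane, was at 27.2 and 58.4 CPM in control pools and at 71.2, 75.8, and 96.0 CPM in knockout pools (log2-fold change 0.92, SE 0.38, adjusted p = 0.180). The knockout pools were above both controls, but control pool 1 lay far below the other. Its log2-fold change was 1.60 (adjusted p = 0.0390) without control pool 2 and 0.48 without control pool 1.

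Of the 4 syntaxins of the endoplasmic reticulum (ER), the Golgi, and the trans-Golgi network, *STX16* was called and 2 lay below in every knockout pool. Over all tested genes, 4.17% were called higher and 19.2% lay below in every knockout pool. *STX17* acts in the fusion of autophagosomes with lysosomes. It was at 58.5 and 75.4 CPM in control pools and at 33.1, 35.9, and 28.7 CPM in knockout pools (log2-fold change −1.04, SE 0.29, adjusted p = 0.0691). Its adjusted p was 0.0413 with a log2-fold change of −1.20 without control pool 1. *STX5*, the Qa SNARE of transport from the ER to the Golgi, was at 20.3 and 22.4 against 12.5, 10.7, and 10.4 CPM (log2-fold change −0.93, SE 0.32, adjusted p = 0.120). In neither gene did the groups overlap, and neither passed the threshold. *STX18*, a syntaxin of the ER, had a log2-fold change of −0.07 (SE 0.36).

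Of the 2 syntaxins of endosomes, *STX12* was at 37.2 and 47.7 CPM in control pools and at 30.5, 32.3, and 29.9 CPM in knockout pools (log2-fold change −0.46, SE 0.29, adjusted p = 0.379). The knockout pools lay close together below both control pools, and the difference did not pass the test.

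**Figure D2:**
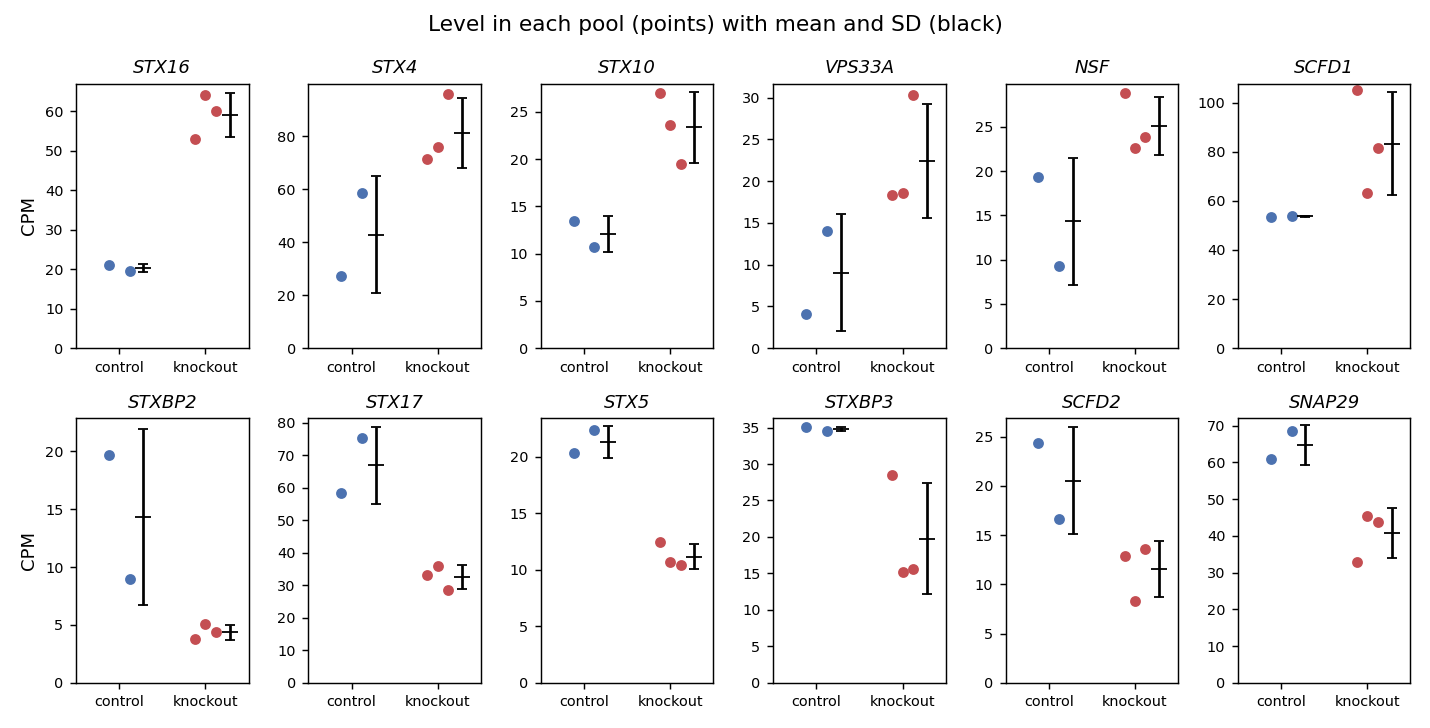
Level in CPM of 12 named members in the 2 control (blue) and 3 knockout (red) pools, 1 point a pool, with the mean and SD of each group in black and an axis from 0 in each panel. *STX16* separates the groups widely (19.7 and 20.9 against 53.1 to 64.3 CPM), whereas the control points of *STXBP2*, *STX4*, and *VPS33A* lie apart from each other.

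Of the 9 Qb and Qc SNAREs tested, 2 lay above in every knockout pool, where 22.2% of all tested genes did, and 0 were called. *GOSR1*, a Golgi Qb SNARE, was at 44.4 and 42.3 CPM in control pools and at 65.1, 60.5, and 74.8 CPM in knockout pools (log2-fold change 0.62, SE 0.29, adjusted p = 0.228). *STX10*, a Qc SNARE of the trans-Golgi network, was at 13.4 and 10.7 against 27.0, 23.6, and 19.5 CPM (log2-fold change 0.95, SE 0.34, adjusted p = 0.135). Both sets of pools were separated without reaching the threshold. *GOSR2*, the Qb SNARE of the early Golgi, was at 87.2 and 102 against 92.1, 100.2, and 85.4 CPM (log2-fold change −0.03, SE 0.28, adjusted p = 0.959).

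Of the 3 proteins that carry both Qb and Qc helices, *SNAP29*, a partner of syntaxin 17 in autophagy, was at 61.0 and 68.5 CPM in control pools and at 32.9, 45.5, and 43.8 CPM in knockout pools (log2-fold change −0.67, SE 0.29, adjusted p = 0.206). The groups did not overlap, as for *SNAP23* above, where 19.2% of all tested genes lay below in every knockout pool. Neither gene was called.

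Of the 8 R-SNAREs tested, 2 lay above and 2 below in every knockout pool, where 22.2% and 19.2% of all tested genes did. None of the 8 was called. *YKT6*, which carries a lipid anchor and cycles between cytosol and membranes, was at 46.3 and 50.4 CPM in control pools and at 73.3, 59.4, and 77.9 CPM in knockout pools (log2-fold change 0.54, SE 0.29, adjusted p = 0.303). *VAMP4*, an R-SNARE of the trans-Golgi network, was at 8.75 and 7.45 against 13.5, 9.39, and 10.1 CPM (log2-fold change 0.44, SE 0.38, adjusted p = 0.523). These were the R-SNAREs with higher levels in every knockout pool. Those lower were *VAMP2* and *VAMP3*, relatives that carry recycling and secretory vesicles to the cell surface. *VAMP2* was at 19.4 and 14.3 against 6.74, 13.0, and 13.6 CPM (log2-fold change −0.61, SE 0.40, adjusted p = 0.405). *VAMP3* was at 60.3 and 37.0 against 30.9, 35.7, and 35.0 CPM (log2-fold change −0.52, SE 0.31, adjusted p = 0.356). In both, the closest control and knockout pools differed little. *VAMP1* had 0.596 CPM in control pool 2, under the limit for 3 counts, and 2.81 CPM in the other, against 1.56, 2.71, and 4.87 CPM (log2-fold change 0.82, SE 0.77, adjusted p = 0.567). Its log2-fold change was 2.30 without control pool 1 and 0.12 without control pool 2. *SEC22B*, an ER R-SNARE, had 5 and 5 counts against 8, 4, and 1.

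Of the 7 SM proteins, 2 lay above and 3 below in every knockout pool, where 22.2% and 19.2% of all tested genes did. *VPS33A*, the SM protein of the tether of late endosomes and lysosomes, was at 4.06 and 14.0 CPM in control pools and at 18.3, 18.6, and 30.3 CPM in knockout pools (log2-fold change 1.30, SE 0.52, adjusted p = 0.168). Its log2-fold change was 2.48 (adjusted p = 0.0320) without control pool 2 and 0.69 without control pool 1. *SCFD1*, the SM protein of syntaxin 5, was at 53.5 and 53.9 against 105, 63.2, and 81.6 CPM (log2-fold change 0.63, SE 0.32, adjusted p = 0.267). *STXBP3*, or Munc18-3, the partner of syntaxin 4, was at 35.0 and 34.6 against 28.5, 15.2, and 15.7 CPM (log2-fold change −0.81, SE 0.36, adjusted p = 0.212), with knockout pool 1 close to the control pools. *SCFD2* was at 24.4 and 16.7 against 12.8, 8.30, and 13.6 CPM (log2-fold change −0.82, SE 0.37, adjusted p = 0.213). Of these 5 SM genes, *STXBP2* included, 2 had higher and 3 had lower levels in every knockout pool, and 0 of the 7 in the class were called.

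**Figure D3:**
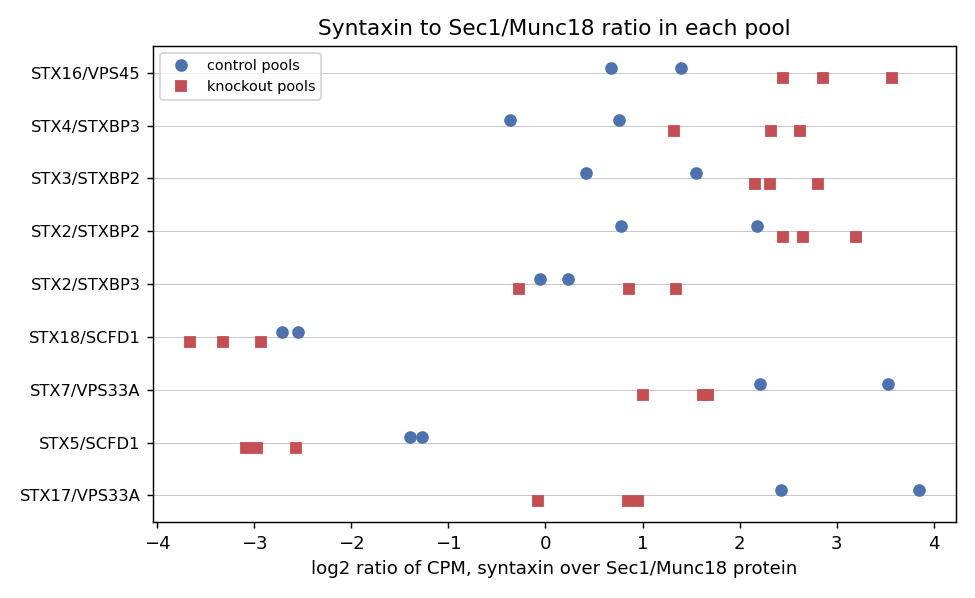
Log2 ratio of the CPM of a syntaxin to that of its SM protein in each pool, for 9 known pairs (blue circles, control; red squares, knockout). In 4 pairs every knockout pool lies above both control pools, in 4 it lies below, and in *STX2*/*STXBP3* the groups overlap. Pairs were listed after the values had been seen, and no background over all genes was computed.

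Since an SM protein works on its own syntaxin, the ratio of their levels was taken in each pool for 9 known pairs, which were listed after the values had been seen and get no test. A ratio within a library does not depend on its scaling, and 3′ counts do not grow with transcript length. Whether different genes are counted equally well was not tested, so each ratio is read only against the same ratio in other pools. *STX16* over *VPS45* was 1.60 and 2.64 in control pools and 5.45, 7.27, and 11.9 in knockout pools. *STX5* over *SCFD1* was 0.380 and 0.414 against 0.118, 0.169, and 0.128. *STX4* over *STXBP3* was 0.777 and 1.69 against 2.50, 5, and 6.13. Of the 9 ratios, 4 lay above and 4 below in every knockout pool, and no share over all genes stands beside these counts. Every pair holds a gene whose own groups did not overlap, so the ratios partly restate those levels. Pairs that share a gene are not independent. *STX17* over *VPS33A* was 14.4 and 5.38 against 1.81, 1.93, and 0.948. *STX3* over *STXBP2* was 1.33 and 2.93 against 7, 4.46, and 4.96. *VPS33A* and *STXBP2*, the denominators of these last pairs, had control levels that differed between pools.

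The other ratios were as follows. *STX2* over *STXBP2* was 1.71 and 4.53 in control pools and 6.28, 5.46, and 9.16 in knockout pools, and *STX2* over *STXBP3* was 0.964 and 1.17 against 0.827, 1.82, and 2.54. *STX18* over *SCFD1* was 0.152 and 0.171 against 0.0789 to 0.131, and *STX7* over *VPS33A* was 11.5 and 4.62 against 3.20, 3.07, and 2. The *STX2* and *STXBP3* pair was the one whose groups overlapped, and no background of ratios over all genes was computed.

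*STXBP5*, or tomosyn, which binds SNAREs without fusing membranes, was at 179 and 136 CPM in control pools and at 129, 138, and 150 CPM in knockout pools (log2-fold change −0.18, SE 0.29, adjusted p = 0.754). The groups overlapped. *NSF*, the ATPase that recycles SNARE bundles, was at 19.4 and 9.24 against 28.8, 22.6, and 23.8 CPM (log2-fold change 0.81, SE 0.39, adjusted p = 0.246). Its log2-fold change was 1.45 (adjusted p = 0.0554) without control pool 1 and 0.40 without control pool 2. *NAPA*, its main adaptor, had 6 and 5 counts against 2, 0, and 1, too few to test. The remaining 15 tested members had log2-fold changes of −0.38 to 0.70, with overlapping groups in every one, and were not called. Those with negative values were *VPS45*, *NAPG*, *STX2*, *VTI1B*, *VAMP7*, *VPS33B*, *STX18*, *STX6*, and *VAMP5*, and those with positive values *VTI1A*, *STX7*, *SNAP47*, *BET1*, *STX8*, and *BET1L*. The last 2, Qc SNAREs of endosomes and of the Golgi, had the highest values at 0.70 each. *STX8* was at 16.3 and 7.75 CPM in control pools and at 26.1, 15.2, and 17.1 CPM in knockout pools, and *BET1L* at 15.6 and 10.4 against 13.1, 24.6, and 26.1 CPM.

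By mean level, the 39 tested members ranged from 2.51 to 196 CPM with a median of 24.6 CPM, against 15.8 CPM over all tested genes, and 26 of the 39 were above that median. *VAMP8* (196 CPM), *STXBP5* (147 CPM), and *GOSR2* (93.4 CPM) were the most abundant, and the order of *VAMP8* and *STXBP5* was within the spread of *VAMP8* between pools. The members' counts made up 0.158% and 0.145% of control and 0.131%, 0.144%, and 0.144% of knockout libraries. Several members share a locus with a gene on the opposite strand. The partners with the most counts in all libraries together were *ZDHHC6* at *VTI1A* (1571 counts) and *JMJD4* at *SNAP47* (756 counts). Next came *LRRC57* at *SNAP23* (259), *PI4KA* at *SNAP29* (207), and a ribosomal pseudogene at *NSF* (189). *VAMP7* lies in a pseudoautosomal region with a copy on X and Y. The use of strand in counting is not given in the sources used here.

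Of 60 further genes that regulate, prime, or tether vesicles for fusion, 59 were found in the table and 51 were tested. Of these 51, 2 (3.92%) were called higher and 0 lower, against 4.17% and 1.01% of all tested genes. DESeq2 called 3 higher and 0 lower, against 1034 and 238 of 14082 genes. With limma-voom the counts were 2 and 0, against 510 and 124 of 14391 genes. At an unadjusted p under 0.05 there were 6 higher and 7 lower, and 11 lay above and 17 below in every knockout pool, with a median log2-fold change of −0.24. These are 11.8% higher and 13.7% lower, against 14.1% and 9.23% of all tested genes, and 21.6% above and 33.3% below, against 22.2% and 19.2%. *SNAPIN* encodes a protein that binds SNAP-type SNAREs and takes part in endosomal transport. It was at 3.75 and 6.85 CPM in control pools and at 50.8, 26.9, and 46.6 CPM in knockout pools, from 12 and 23 counts against 392, 149, and 268. It rose 7.77-fold (log2-fold change 2.96, SE 0.45, adjusted p = 0.0115), with the knockout pools well above both controls. It overlaps *ILF2* on the opposite strand, which held 2635 counts. Without knockout pool 1 its adjusted p was 0.0606, and it was called in the other 12 alternatives. *ZW10*, which belongs to a tether that works with syntaxin 18 at the ER and also to the kinetochore, was at 26.0 and 57.2 against 131, 146, and 117 CPM and rose 3.16-fold (log2-fold change 1.66, SE 0.38, adjusted p = 0.0406). An unnamed gene and a pseudogene on the same strand overlap it, with 211 and 80 counts. Its adjusted p was 0.0541 without control pool 1 (log2-fold change 1.21) and 0.114, 0.111, and 0.09999 without knockout pool 1, 2, or 3. Without control pool 2 its log2-fold change was 2.37 (adjusted p = 0.0121).

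Genes that work with *ZW10* at the ER were looked at after the values had been seen. Its tether partners *RINT1* and *NBAS* had log2-fold changes of 0.24 (SE 0.39) and −0.31 (SE 0.28). The SNARE gene *BNIP1* was at 8.44 and 11.3 CPM in control pools and at 27.4, 16.2, and 15.7 CPM in knockout pools (adjusted p = 0.170), and *USE1* at 22.5 and 14.0 against 38.1, 26.2, and 30.1 CPM (log2-fold change 0.79, SE 0.35, adjusted p = 0.213). Both SNAREs lay higher in every knockout pool, as 22.2% of all tested genes did, and none of these 4 genes was called. *STX18*, the syntaxin that works with this tether, had overlapping groups (log2-fold change −0.07, SE 0.36).

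**Figure D4:**
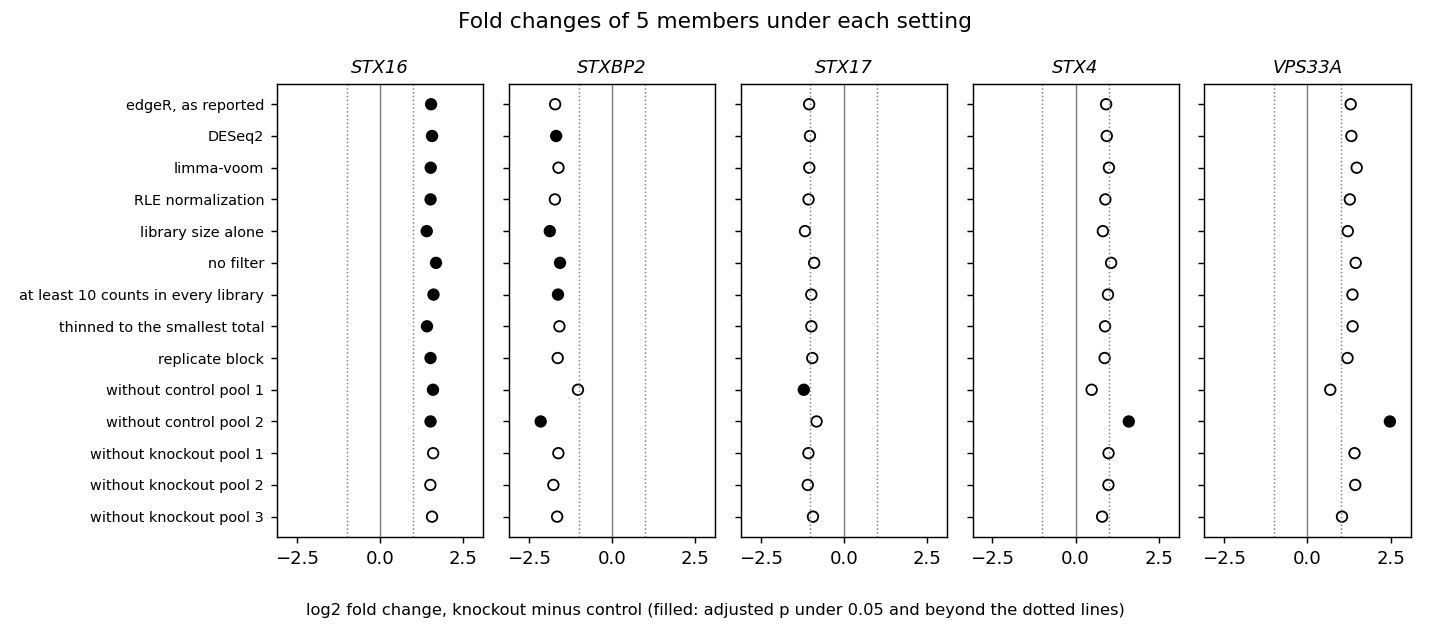
Log2-fold change, knockout minus control, of 5 members under the reported fit and 13 alternatives, with filled points for an adjusted p under 0.05 and a value beyond the dotted lines at −1 and 1. *STX16* stays between 1.41 and 1.69, and *STXBP2* ranges from −2.14 to −1.02.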

How the data were processed

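RNA was measured in 5 libraries of pooled TF-1 clones. The authors prepared QuantSeq 3′ FWD libraries, trimmed adapters with BBDuk, aligned 50 bp single-end reads to GRCh38 with HISAT2 2.1.0 and kept uniquely mapped reads with SAMtools 1.10. The values the authors deposited are raw whole-number counts for each gene. Reads of gene copies that map to several places were thereby lost. The counting program, the annotation release and the handling of duplicates are not given in the sources used here. Libraries were grouped by their labels. A further control and a further knockout pool were left out by the study after a test for outliers and are not analysed here.

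Counts were fitted in R 4.3.3 with edgeR 4.0.16 (filterByExpr with a minimum count of 10, TMM, quasi-likelihood test, condition only, common biological coefficient of variation 32.2%), with Benjamini-Hochberg adjustment over all 14391 tested genes. The method was tested on simulated counts with a dispersion common to all genes. Such counts lack the differences in spread between genes and pools seen here, so this test does not bear on the call of any named gene. Alternatives were DESeq2 1.42.0, limma-voom (limma 3.58.1), other scaling, filters and thresholds, thinning to the smallest total, a block for replicate number, and leaving out each pool. Gene positions come from GENCODE 44 and promoter windows from RefSeq. The members, lists and rule for named genes (called members, members with groups apart, the 5 largest rises and falls, *STXBP2* and its partners, *STX16*, and the 3 most abundant) were chosen with earlier results of these data known.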

Additional observations from a re-analysis of the deposited data

How the results depend on the processing

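The number of members called higher was 1, and leaving out each pool in turn gave 0 to 3: 0 without any 1 knockout pool, and 3 (*STX16*, *STX4* and *VPS33A*) without control pool 2. The number called lower was 0 and became 1 under DESeq2, library size alone, no filter, or at least 10 counts in every library (*STXBP2* in each), 2 at an adjusted p under 0.1, and 0 to 1 with each pool left out (*STX17* without control pool 1, *STXBP2* without control pool 2). Among the other pathway genes, those called higher numbered 2, or 3 under DESeq2, with no filter or at an adjusted p under 0.1, or 0 to 2 with a pool left out (0 without knockout pool 1, 1 without knockout pool 2 or 3), and those called lower 0, or 1 at an adjusted p under 0.1 and 0 to 4 with a pool left out (4 without control pool 1). With the replicate block, 1 pathway gene was called lower. With 1 control pool left, that pool is assumed to vary as the knockout pools do. Without knockout pool 1, 2, or 3, calls over all genes were 107, 323, and 183 higher, against 600 in the reported fit. Those lower were 4, 24, and 8, against 145. Over all genes, 238 were called lower under DESeq2, 232 with library size alone, and 201 with no filter. With at least 10 counts in every library, 113 were called lower. The cause of these shifts was not tested.

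Replicate numbers 1 and 2 occur in both groups but name different pools. Deviations from the group means of same-numbered pools correlated at 0.196 and 0.108 over genes, and with 2 pairs the pools were taken to share only a number. The block left *STX16* called (log2-fold change 1.52, adjusted p = 0.0176) and changed no other call of a member; over all genes it gave 894 called higher and 200 lower, against 600 and 145.

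Of the 24 named members, 3 with values near 0 changed sign; the signs of the other 15 tested members were not followed. *VAMP8* was at −0.0373 with library size alone and at −0.34 to 0.73 with a pool left out. *GOSR2* was at 0.12 without a filter, 0.0340 with at least 10 counts in every library, 0.0247 with the replicate block, and −0.13 to 0.11 with a pool left out. *STXBP5* was at −0.34 to 0.0436 with a pool left out. Over 26 named genes and their alternatives, 311 of 336 values kept direction and side of the threshold. The median log2-fold change of all genes was −0.03 in the reported fit and −0.17 when only library size was used for scaling. It was 0.11 without a filter, 0.0038 with at least 10 counts in every library, and 0.0043 with the replicate block. With 2 control pools of 2849979 and 3408827 counts, differences of low genes such as *STX11* were not detectable at this depth.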
